A study of Mus musculus with 74 samples.

Results

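This section compares the brain cells other than microglia at 12 weeks and at 5 weeks on control chow, without a demyelinating agent in the food. It covers 18 of the 74 libraries of the series, 9 animals at each time, chosen by the labels for cell fraction, diet and week, and no measured value entered the choice. At 5 weeks there were 3 wild-type (WT), 3 Trem2 +/- (HET) and 3 Trem2 -/- (KO) animals, and at 12 weeks there were 2, 4 and 3. Each of these 6 groups held 1 male. Trem2 encodes a lipid-sensing receptor of microglia, and the mutant animals are heterozygous and homozygous knockouts. Brains of mice perfused with saline were dissociated, viable cells were sorted by Cd11b, and the cells outside the Cd11b gate were pooled into 1 library per animal. Libraries were made with a 3′ tag method for polyadenylated RNA, so a gene's level counts tags near the end of its transcripts. The labels name neither strain, nor the age of the animals at the start of the diet, nor the batch in which each library was made. Time on the diet, age and processing cannot be told apart in this comparison.

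The nonmicroglia pool of an adult brain holds oligodendrocytes, which wrap axons in myelin, astrocytes, endothelial cells and pericytes of the vessels, ependymal and choroid plexus cells of the ventricles, and few neurons, since most adult neurons do not survive dissociation whole. Myelin goes on accumulating in the adult mouse brain, and oligodendrocytes store iron in ferritin for the enzymes of lipid synthesis. In a pooled sample of this kind, fewer cells of a type and less RNA per cell cannot be told apart.

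Of 14096 genes tested, 28 differed between 12 and 5 weeks at an adjusted p under 0.05 (0.199% of the genes), with genotype and sex in the model. Of these, 22 were lower at 12 weeks (0.156%) and 6 were higher (0.0426%). The higher genes were Fth1, Mbp, Apod, Tuba1a, S100b and Tmsb4x, which include a myelin protein, a lipid carrier and the heavy chain of ferritin. The lower genes include the neuronal genes Meg3 and Gad1, the glutamate receptor subunit Grin2b, the pericyte gene Rgs5 and the splicing-related genes Luc7l3 and Pnisr. Higher genes changed by 0.71 to 0.93 on the log2 scale, and lower genes by -0.67 to -4.73. The median change of all genes tested was -0.01. An unadjusted p under 0.05 was reached by 1088 genes (7.72%).

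The number of calls depended on the libraries and on the model. It fell to 11 without the knockout animal 1104 of 5 weeks, and to 12, 16, 16, 17 and 17 without animals 9546, 4352, 1744, 7674 and 9467, and it was 65 without the knockout animal 8635 of 12 weeks. Without animals 1930 and 1932, the 2 libraries farthest from the rest, it was 31, with 22 of the 28 among them. Noncoding genes took a share of the counts of 12.1 ± 1.22% at 5 weeks and 10.7 ± 1.43% at 12 weeks (SD, n = 9 each; two-sided exact permutation p = 0.0452). With that share as a covariate 1 gene was called, Syt6, and all 28 kept the sign of their change. The sizes of Fth1, Apod and Rgs5 were then 0.72, 0.85 and -0.89, beside 0.84, 0.86 and -0.97 without it, at adjusted p-values of 0.0954, 0.0954 and 0.128. These genes do not stand for all 28. Over all 29 alternative settings, not this one alone, the smallest sizes of Grin2b and Meis2 were -1.06 and -0.91. In the main fit they were -1.53 and -1.29. Total counts were 1255465 to 3039772 at 5 weeks and 1404516 to 2614787 at 12 weeks (exact permutation p = 0.368). The share on mitochondrial genes was 5.30 ± 1.54% and 5.68 ± 1.55% (exact permutation p = 0.604). An RNA integrity number is labelled for 9 of 9 libraries at 5 weeks, 7.2 to 9.3, and for 3 of 9 at 12 weeks, 8.6 to 8.8. Trem2 had only 1.63 to 11.8 CPM (counts per 1e6 counts) at 5 weeks and 1.44 to 11.6 at 12 weeks in this fraction, too few to check the genotype labels.

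**Figure D1:**
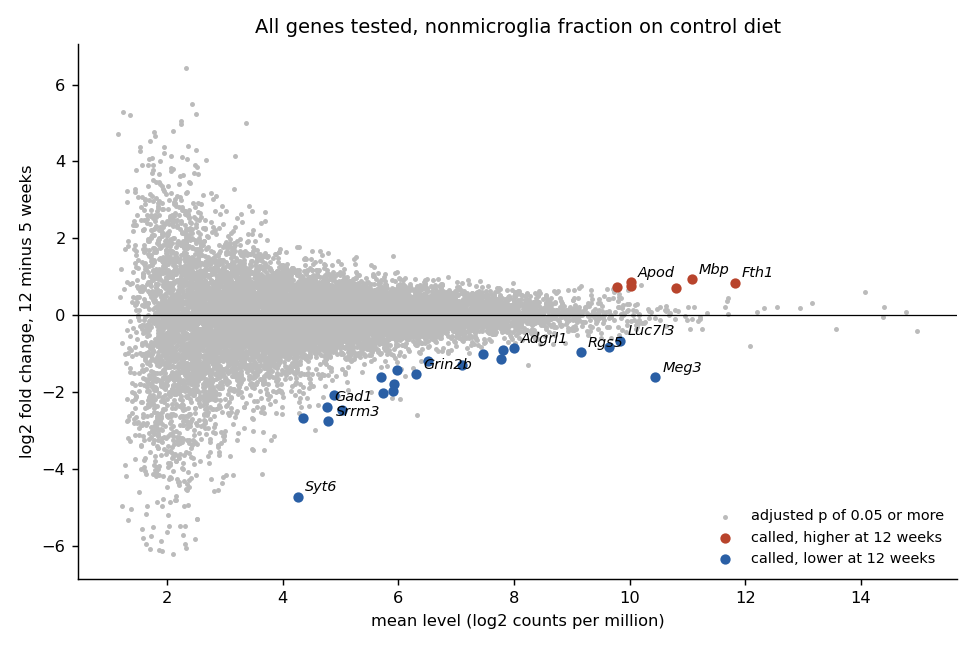
Log2 fold change at 12 against 5 weeks (vertical axis) over the mean level in log2 CPM (horizontal axis) for the 14096 genes tested, 1 point per gene. The 6 called higher genes all lie at high mean levels, and the 22 called lower genes run from Syt6, with the largest change, to Luc7l3.

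Among the genes that rose, Fth1, the ferritin heavy chain that stores iron, had the smallest p. Its level was 1939.7 to 3307 CPM at 5 weeks (median 2576) and 3651 to 6831 at 12 weeks (median 4105). The lowest animal at 12 weeks was above the highest at 5 weeks, and the log2 difference was 0.84 ± 0.14 (standard error, SE; edgeR adjusted p = 0.00296). Only 6 of the 14096 genes tested separated the times in this way (0.0426%): Fth1, Tuba1a and Eef1b2 were higher at 12 weeks, and Pitpnm2, Gm37914 and A230103L15Rik were lower. Eef1b2, Pitpnm2 and Gm37914 were not called, at adjusted p-values of 0.0958, 0.426 and 0.124. The light chain Ftl1 had too few counts to be tested, and the other 18 tested genes of the antioxidant and metal list were not called, among them the transferrin receptor Tfrc (0.37 ± 0.23).

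Apod, a lipocalin that carries lipids and is made by mature oligodendrocytes and meningeal fibroblasts, lay at 599.6 to 853 CPM at 5 weeks (median 718) and at 775 to 1786 at 12 weeks (median 1477). All but 2 animals at 12 weeks were above the 5-week range, and the log2 difference was 0.86 ± 0.16 (adjusted p = 0.00562). Mbp, a structural protein of compact myelin, had 963 to 2129.9 CPM at 5 weeks (median 1351) and 1629 to 6035 at 12 weeks (median 2384). The wild-type animal 1932 held the highest of these values, and the next highest was 3210.4. Mbp changed by 0.93 ± 0.18 (adjusted p = 0.0080).

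Tuba1a, an alpha tubulin of microtubules, was at 573 to 766 CPM (median 636) and then at 838 to 1926 (median 999.9), with no overlap between the times. Its change was 0.73 ± 0.15 (adjusted p = 0.0147). S100b, a calcium-binding protein of astrocytes and oligodendrocytes, was at 1116 to 2241 CPM (median 1247) and 1617 to 2967 (median 1998), and the ranges overlapped through animal 1930 at 5 weeks. Its change was 0.71 ± 0.15 (adjusted p = 0.0164). Tmsb4x, which binds actin monomers, was at 472 to 1186 CPM (median 696) and 914 to 2068 (median 1217), a change of 0.75 ± 0.17 (adjusted p = 0.0439). In these 6 genes the differences within WT, HET and KO animals all had the same sign. The genes were called on these same animals, so shared signs are partly built in.

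**Figure D2:**
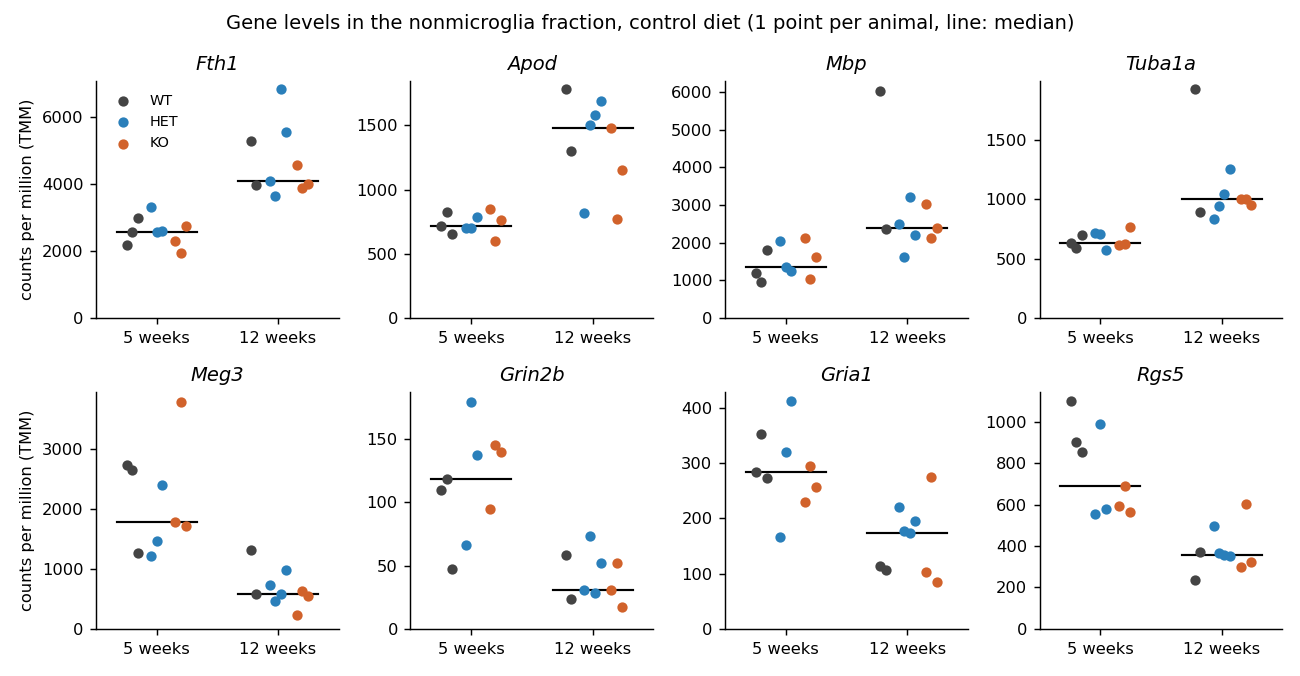
Normalised CPM (vertical axes, from 0) of 8 called genes in each of the 18 animals at 5 and 12 weeks, coloured by Trem2 genotype, with the median of each time as a line. Fth1 and Tuba1a show no overlap between the times, and the highest Mbp and Tuba1a values at 12 weeks belong to the same wild-type animal, 1932.

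The mature oligodendrocyte markers shared the direction of Mbp and Apod. All 19 markers tested had a positive change, beside 49.2% of all genes, with a median of 0.67, and 17 had an unadjusted p under 0.05 beside 7.72% of all genes. Mbp and Apod were called and the other 17 were not. Their summed level was 8938 to 37385 CPM at 5 weeks (median 19281) and 21380.4 to 57990 at 12 weeks (median 27487), with 2 animals at 12 weeks above the 5-week range. Ugt8a, which makes the myelin lipid galactosylceramide, had medians of 97.2 and 174 CPM (0.81 ± 0.22, adjusted p = 0.124). Mag, a myelin-associated adhesion protein, had medians of 597 and 754 CPM (0.67 ± 0.18, adjusted p = 0.124). Newly formed oligodendrocyte markers had a median change of 0.15 and precursor markers one of -0.27, and none of the 26 on these lists was called. Of the 19 genes of fatty acid and myelin lipid synthesis 15 had a positive change, with a median of 0.31 and no call.

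Of the 14 neuron markers tested, Meg3 and Gad1 were called, both lower at 12 weeks. Meg3, a long noncoding RNA abundant in neurons, had 1219 to 3783 CPM at 5 weeks (median 1792) and 235 to 1321 at 12 weeks (median 587). All but 1 animal at 12 weeks lay below the 5-week range, and the log2 difference was -1.61 ± 0.30 (adjusted p = 0.0379). Gad1, the GABA-synthesising enzyme of inhibitory neurons, was at 3.31 to 74.1 CPM (median 49.7) and at 0 to 19.6 (median 8.69). The ranges overlapped, since 2 of the animals at 5 weeks were low as well. It fell by 2.39 ± 0.55 (adjusted p = 0.0462). Of the 14 neuron markers 12 had a negative change, beside 50.8% of all genes, with a median of -1.16. The summed neuron markers were at 1637 to 4791 CPM at 5 weeks (median 2394) and 464 to 1846 at 12 weeks (median 936), with 8 of 9 animals below the 5-week range. Meg3 makes up most of that sum. The 2 neuron markers with a positive change, Tubb3 (0.79 ± 0.29, adjusted p = 0.346) and Stmn2 (0.29 ± 0.38, adjusted p = 0.962), encode proteins of the neuronal cytoskeleton. Rbfox3, the nuclear protein used to stain neurons, had medians of 85.6 and 11.6 CPM (-2.61 ± 0.76, adjusted p = 0.262).

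Among the glutamate-gated channels, Grin2b and Gria1 were called. Grin2b, a subunit of the NMDA receptor, was at 47.3 to 179 CPM (median 119) at 5 weeks and at 17.2 to 73.2 (median 30.7) at 12 weeks. The ranges overlapped, with 5 of 9 animals below the 5-week range, and it fell by 1.53 ± 0.29 (adjusted p = 0.00592). Gria1, a subunit of the AMPA receptor for fast excitation, was at 166 to 412 CPM (median 283) and 84.4 to 275 (median 174), a change of -0.92 ± 0.21 (adjusted p = 0.0475). That call was near the threshold: it held in 4 of the 18 fits that leave out 1 library, and the adjusted p was 0.0554 with DESeq2 size factors. The other AMPA receptor subunits Gria2, Gria3 and Gria4 had changes of -0.72 ± 0.19, -1.09 ± 0.36 and -0.90 ± 0.31 and were not called, at adjusted p-values of 0.0849, 0.261 and 0.302. All 5 NMDA receptor subunits tested had a negative change, Grin2b alone being called, and Grin2c, which astrocytes also express, was at medians of 339 and 222 CPM (-0.66 ± 0.22, adjusted p = 0.262). These families were looked up after the calls were seen, so that the directions of their members are a description.

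Among genes of synaptic proteins, Camk2a, a subunit of calcium-calmodulin kinase II, was at 30.3 to 139 CPM (median 82.0) and 6.52 to 66.3 (median 16.4), with 7 of 9 animals below the 5-week range. It fell by 1.62 ± 0.35 (adjusted p = 0.0228). Shank1, a scaffold of the postsynaptic density, was at 66.9 to 205 CPM (median 117) and 29.4 to 103 (median 47.8), a change of -1.19 ± 0.26 (adjusted p = 0.0301). Baiap2, which shapes actin in dendritic spines, was at 43.3 to 160.5 CPM (median 77.1) and 15.8 to 55.6 (median 31.4). Of its 9 animals at 12 weeks 8 were below the 5-week range, and it changed by -1.44 ± 0.29 (adjusted p = 0.0104). Elfn2, a leucine-rich adhesion protein of synapses, had medians of 42.4 and 13.7 CPM (-2.09 ± 0.49, adjusted p = 0.0478).

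Which cells of the pool held the RNA of these genes was not tested. Adgrl1, the adhesion receptor latrophilin 1, was at 228 to 434 CPM (median 335) and 138 to 272 (median 179), with 8 animals at 12 weeks below the 5-week range. It fell by 0.87 ± 0.18 (adjusted p = 0.0104), and of the 4 latrophilin genes it was the only one with a negative change. Syt6, a synaptotagmin, was at 0 to 120.2 CPM (median 24.5) at 5 weeks and at 0 to 8.07 at 12 weeks, where 6 of 9 libraries had no count. Its fitted change was -4.73 ± 0.87 (adjusted p = 0.00562) and rests on 24 counts in all at 12 weeks. Over the 29 alternative settings the change ranged from -6.15 to -4.36.

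Further called lower genes, described after their values were seen, encode factors of transcription, signalling and splicing. Myt1l, a zinc finger factor that maintains neuronal identity, was at 42.3 to 192 CPM (median 91.9) and 5.04 to 50.5 (median 23.4), a change of -1.80 ± 0.36 (adjusted p = 0.00871). Meis2, a homeobox factor, was at 102 to 319.6 CPM (median 176) and 49.0 to 135 (median 78.0), a change of -1.29 ± 0.23 (adjusted p = 0.00551). In both genes 8 of 9 animals at 12 weeks lay below the 5-week range. Hivep2, a large zinc finger protein, had medians of 207 and 112 CPM (-1.01 ± 0.23, adjusted p = 0.0439). Rasgef1a, an exchange factor for Ras proteins, had medians of 61.8 and 16.6 CPM (-2.02 ± 0.39, adjusted p = 0.0080).

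Srrm3, which drives the inclusion of microexons in neurons, was at 5.43 to 97.3 CPM (median 44.1) and 0 to 23.04 (median 5.96), a change of -2.76 ± 0.59 (adjusted p = 0.0213). Luc7l3, a factor linked to the U1 splicing particle, was at 769 to 1513.5 CPM (median 1048) and 514 to 968 (median 723), a change of -0.67 ± 0.16 (adjusted p = 0.0478). Pnisr, an arginine- and serine-rich nuclear protein, had medians of 1068 and 550.0 CPM (-0.83 ± 0.19, adjusted p = 0.0478). Among the relatives of Luc7l3, Luc7l had a change of -0.91 ± 0.24 (adjusted p = 0.0994) and Luc7l2 one of -0.25 ± 0.17 (adjusted p = 0.841). The 10 tested SR splicing factors had 5 changes on each side of 0 and no call.

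Of the 5 called genes that do not code for protein, 4 are annotated only as transcripts still to be tested by experiment (the TEC class), and each of these lies within an intron of a longer gene on the same strand. Whether the tags came from the TEC gene or from unspliced RNA of the host cannot be told apart, and the labels do not say whether counting used strand. A230103L15Rik (chromosome 7, 59327318 to 59331189, GRCm38) lies in Snhg14, the long transcript that runs antisense to Ube3a in neurons. It was at 22.5 to 125 CPM (median 51.1) and 0 to 15.7 (median 9.63), with no overlap (-2.48 ± 0.46, adjusted p = 0.00585). Gm42583 (chromosome 6, 21258921 to 21265620) lies in the potassium channel gene Kcnd2 and had medians of 80.8 and 19.01 CPM (-1.98 ± 0.38, adjusted p = 0.0080). 2900022M07Rik (chromosome 1, 25808956 to 25809972) lies in the adhesion receptor gene Adgrb3 and had medians of 291 and 124 CPM (-1.14 ± 0.24, adjusted p = 0.0179). Gm42598 (chromosome 5, 7233401 to 7235837) lies in Zfp804b and had medians of 28.5 and 3.60 CPM (-2.67 ± 0.63, adjusted p = 0.0478). The hosts themselves were not called: Snhg14 changed by -0.50 ± 0.36, Kcnd2 by -0.87 ± 0.41 and Adgrb3 by -0.28 ± 0.48, and Zfp804b had too few counts to be tested.

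In a list of nuclear and noncoding RNAs, 9 of 14 had a negative change, with a median of -0.29, and Meg3 was the only call. Malat1, which stays in the nucleus and alone took most of the list's counts, had 28992 to 45783 CPM at 5 weeks (median 39052) and 20482 to 36343 at 12 weeks (median 25009). It did not pass the adjustment (-0.40 ± 0.13, adjusted p = 0.258). Its counts are part of the noncoding share given above, as are those of Meg3 and the called TEC genes. The fit with that share as a covariate is given above, and whether the share causes the calls was not tested.

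Rgs5, a regulator of G protein signalling that marks pericytes, was at 555 to 1101 CPM (median 689) at 5 weeks and 238 to 604 (median 359) at 12 weeks. Of the 9 animals at 12 weeks 8 lay below the 5-week range, and it fell by 0.97 ± 0.18 (adjusted p = 0.00592). It was the only one of 12 tested mural cell markers to be called, and 6 of the 12 had a negative change, with a median of -0.02. The summed mural markers were at 786 to 1669 CPM at 5 weeks and 545 to 1061 at 12 weeks, and Rgs5 alone made up most of that sum in every animal but 1932 and 1744. The pericyte receptor Pdgfrb (-1.05 ± 0.35, adjusted p = 0.274) and the channel subunit Abcc9 (-2.16 ± 0.69, adjusted p = 0.243) did not pass, and the smooth muscle genes Acta2 (0.22 ± 0.31) and Myh11 (0.32 ± 0.44) had positive changes that did not pass either. Endothelial markers were spread about 0, with a median change of 0.01 over 18 genes and no call.

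The promoters of these genes can be compared by sequence, and 4 of them are shown because they come from both directions and from genes with 1 RefSeq start: 2 genes that rose (Apod, Tuba1a) and 2 that fell (Gad1, Baiap2). Each is the 250 bases before the RefSeq start, 5′ to 3′ on the gene's strand, from RefSeq (GRCm38.p6), with capitals for matches to the motifs named after them. RefSeq starts can differ from the gene starts of GENCODE. By the GENCODE coordinates the Gad1 and Baiap2 windows lie inside the gene and the Tuba1a window overlaps it, while the Apod window lies directly before it.
Apod, chr16:31314809-31315058, minus strand: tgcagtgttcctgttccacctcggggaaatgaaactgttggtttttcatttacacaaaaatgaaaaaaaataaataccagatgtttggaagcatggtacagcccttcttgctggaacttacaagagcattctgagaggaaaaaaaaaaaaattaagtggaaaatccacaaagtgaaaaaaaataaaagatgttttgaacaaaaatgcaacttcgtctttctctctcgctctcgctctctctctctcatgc
Tuba1a, chr15:98953502-98953751, minus strand: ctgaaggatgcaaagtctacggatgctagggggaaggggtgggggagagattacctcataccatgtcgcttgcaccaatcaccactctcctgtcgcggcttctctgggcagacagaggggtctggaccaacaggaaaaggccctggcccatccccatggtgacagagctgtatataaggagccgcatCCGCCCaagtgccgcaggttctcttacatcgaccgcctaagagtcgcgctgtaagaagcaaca
Gad1, chr2:70561879-70562128, plus strand: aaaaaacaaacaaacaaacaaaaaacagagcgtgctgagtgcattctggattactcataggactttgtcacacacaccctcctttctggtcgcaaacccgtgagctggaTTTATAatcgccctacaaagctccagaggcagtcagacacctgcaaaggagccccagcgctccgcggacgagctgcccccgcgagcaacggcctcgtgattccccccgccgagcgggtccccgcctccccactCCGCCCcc
Baiap2, chr11:119942842-119943091, plus strand: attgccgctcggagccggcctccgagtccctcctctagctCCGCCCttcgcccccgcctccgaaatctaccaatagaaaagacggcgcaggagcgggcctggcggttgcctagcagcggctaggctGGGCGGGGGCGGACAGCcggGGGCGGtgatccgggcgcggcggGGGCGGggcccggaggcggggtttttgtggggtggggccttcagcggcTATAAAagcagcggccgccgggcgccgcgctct
The motifs searched on both strands were the TATA box TATAAA, the GC box GGGCGG bound by SP1, the E-box CAGCTG, and the left core CAGCACC and the right core GGACAGC of the RE1 element bound by the neuronal repressor REST. Matches can overlap, as GGGCGG and GGACAGC do in Baiap2. The set of RefSeq windows used here held 13 of the 22 lower genes (21 windows) and 5 of the 6 higher genes (6 windows). GGGCGG was in 12 of the 21 windows of lower genes, which belong to 9 genes. It was in 3 of the 6 of higher genes, beside 32.7% of all 32851 windows. GGACAGC was in 5 of the 21 windows of lower genes, which belong to 3 genes, in none of the 6, and in 5.28% of all windows. CAGCACC was in none of either set and in 5.73% of all, and CAGCTG was in 6 of 21 (4 genes), none of 6 and 13%. TATAAA was in 4 of 21 (4 genes), 1 of 6 and 12.4%. Apod had 4 CpG dinucleotides in its window and Baiap2 had 31, beside a median of 6 over all windows.

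No gene was called within a single genotype, at 2 to 4 animals per time: 0 for wild type, 0 for heterozygotes and 0 for knockouts, with 1098, 796 and 668 genes at an unadjusted p under 0.05 of 15218 (edgeR; DESeq2 called 156, 80 and 63, and limma 0, 4 and 11). The test of whether the change differed between genotypes called 0 genes, with 702 at an unadjusted p under 0.05 (DESeq2 called 2, limma 0). Leaving out 1 wild-type animal of 12 weeks leaves a single animal in that group, and the number of genotype differences was then 63 without animal 9145 and 6 without animal 1932. All 28 genes had the same sign of change in wild type, HET and KO animals. They were called on these same animals pooled, so this is largely built in and does not show that the genotypes repeat each other. The sizes still ranged widely for some. Camk2a changed by -0.33 in wild type, -1.63 in HET and -2.67 in KO animals, an unadjusted p of the difference of 0.0292 and an adjusted p of 1. Fth1 changed by 0.81, 0.86 and 0.83.

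The animals on 0.2% cuprizone, a copper chelator that strips myelin, give the same comparison of weeks in 19 separate nonmicroglia libraries (9 at 5 weeks and 10 at 12 weeks). There 163 of 16915 genes were called (0.964%), 114 lower and 49 higher at 12 weeks. All 28 genes had the same sign as on control chow, and 23 of them were called there too, 18 lower and 5 higher. The share of all genes with the same sign on both diets is not given here. The median change of the 22 lower genes was -1.57 on control chow and -1.60 on cuprizone, and that of the 6 higher genes was 0.80 and 0.66. Mbp on cuprizone was at 870 to 2127 CPM at 5 weeks (median 1521) and 2134 to 4653 at 12 weeks (median 2961), with no overlap (1.03, adjusted p = 0.00032). Meg3 was at 788 to 5788 CPM (median 2177) and 229 to 1103 (median 550.4), a change of -2.12 (adjusted p = 0.00275). Of the mature oligodendrocyte list, 9 of 19 genes were called higher at 12 weeks on cuprizone.

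The 5 genes not called on cuprizone were Fth1, Meis2, Syt6, Rgs5 and Elfn2. Fth1 was at 2141 to 4453 CPM (median 3039.6) at 5 weeks and 2168 to 5441 (median 3745) at 12 weeks on cuprizone, with nearly complete overlap (0.38 ± 0.13, adjusted p = 0.175). Elfn2 had medians of 39.6 and 49.6 CPM there (-0.34 ± 0.38, adjusted p = 0.895), and Rgs5 had medians of 555 and 412 (-0.35 ± 0.17, adjusted p = 0.427). The difference between the diets was itself tested, and none of the 28 genes passed it. The unadjusted p was under 0.05 for 4 of them, Fth1, Rgs5, Syt6 and Elfn2.

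The one gene of 16915 (0.00591%) whose change over weeks differed between the diets was Syt4, a synaptotagmin of dense-core vesicles. On control chow it was at 6.37 to 35.7 CPM at 5 weeks (median 23.2) and 2.60 to 14.9 at 12 weeks (median 5.46). On cuprizone it was at 72.1 to 149 CPM (median 83.4) and 92.5 to 270.3 (median 170.0), above every control animal at both times. The change was -1.73 on control chow and 0.81 ± 0.25 on cuprizone, a difference of -2.55 ± 0.40 (adjusted p = 0.000218). Neither change was called by itself (adjusted p = 0.387 in the control fit and 0.103 on cuprizone). With limma the test between the diets called 0 genes, Syt4 included, and with DESeq2 it called 4, Syt4 among them.

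**Figure D3:**
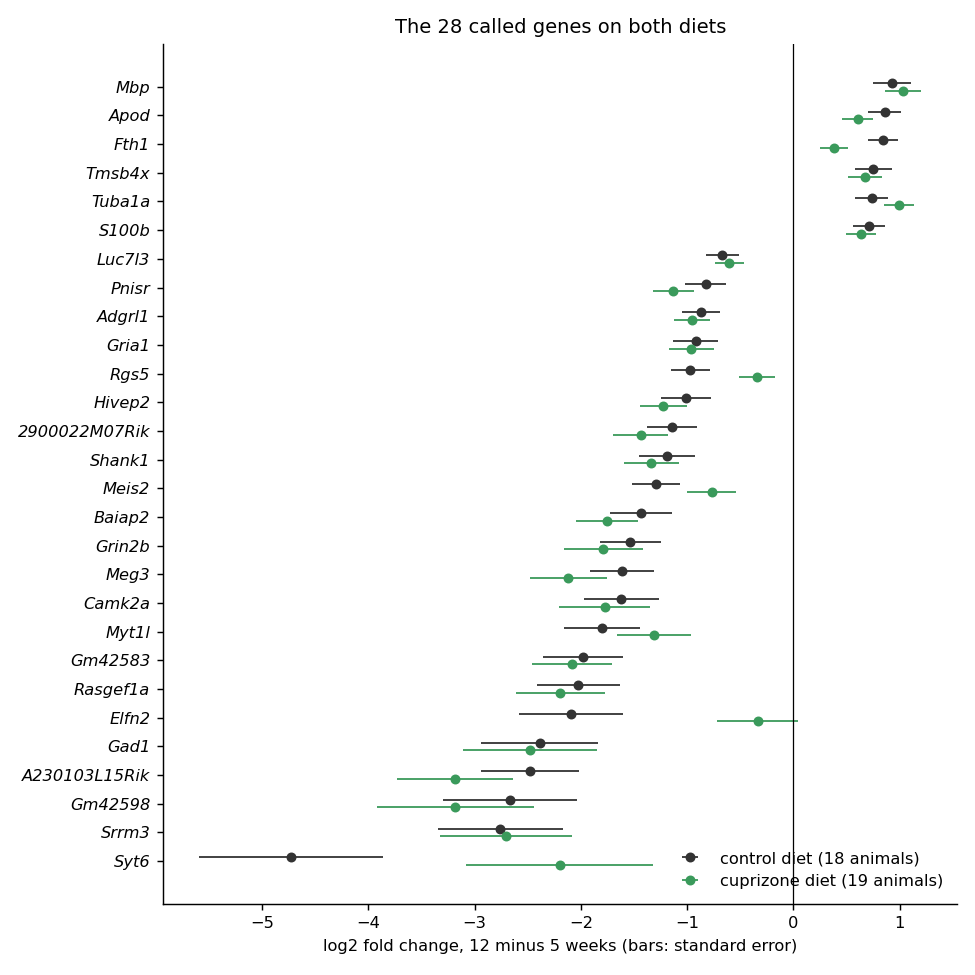
Log2 fold change at 12 against 5 weeks with its standard error (horizontal axis) for the 28 called genes (vertical axis), on control chow in black and on cuprizone in green. All 28 pairs lie on the same side of 0, and Elfn2, Syt6, Rgs5, Fth1, Meis2 and Myt1l are among those closer to 0 on cuprizone.

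The microglia sorted from the same 18 animals allow the same comparison in another cell type. Of the 28 genes 19 had the same sign of change there and 0 were called. The share of all genes with matching signs is not given here. Some of the 28 lay near the floor in microglia, such as Gad1, with medians of 0.58 and 0 CPM. In microglia 2 of 15437 genes were called (0.0130%), Id2 (1.25 ± 0.21) and the synaptic scaffold gene Dlgap1 (-1.73 ± 0.33). The change differed between the fractions for 4 genes (0.0259%), in a fit with no term for the animal. With the animal as a block 13 were called, these 4 among them. Without the sex term 1 of the 4 was called and no other gene, and limma called 40 genes with 2 of the 4 among them. Fth1 was at 1599 to 2511 CPM (median 1949) at 5 weeks and 1369 to 2513 (median 1682) at 12 weeks in microglia, with overlapping ranges. Its difference of changes, nonmicroglia minus microglia, was 1.02 ± 0.20 (adjusted p = 0.0159). Hivep2 was at medians of 58.2 and 91.5 CPM in microglia, a difference of changes of -1.90 ± 0.38 (adjusted p = 0.0208).

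Id2, an inhibitor of basic helix-loop-helix factors, had medians of 268 and 224 CPM in the nonmicroglia fraction and 269.9 and 559 in microglia, with a difference of changes of -1.71 ± 0.30 (adjusted p = 0.00647). Gm38043, which lies in an intron of the kinase gene Abl2, had medians of 30.2 and 5.88 CPM in the nonmicroglia fraction and 22 and 37.1 in microglia. Its difference of changes was -3.66 ± 0.72 (adjusted p = 0.0162), and its change in the nonmicroglia fraction alone did not pass (-2.37, adjusted p = 0.0632).

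Among the remaining cell type lists only the meningeal fibroblast markers held a call, Apod. All 12 ependymal markers had a positive change with a median of 1.03, and 4 had an unadjusted p under 0.05. Their summed level was 434 to 821 CPM at 5 weeks (median 534) and 321 to 1514 at 12 weeks (median 955), and the smallest p was that of the ciliary membrane gene Tmem212 (1.53 ± 0.37, adjusted p = 0.0722). Of 19 astrocyte markers 18 had a negative change, with a median of -0.29 and 6 at an unadjusted p under 0.05. The bicarbonate transporter Slc4a4 (-0.53 ± 0.16, adjusted p = 0.171) and the glutamate transporter Slc1a2 (-0.36 ± 0.16, adjusted p = 0.527) were among them. Summed astrocyte markers were at 11300 to 15378 CPM at 5 weeks (median 12063) and 8818 to 14633 at 12 weeks (median 10046). In 7 animals at 12 weeks the sum lay below the 5-week range. On cuprizone 3 of the 19 astrocyte markers were called, all lower at 12 weeks. Choroid plexus markers had a median change of 0.30, with the carrier protein Ttr at medians of 19102 and 22078 CPM. Microglia markers, which show how much of the other fraction is present, summed to 579 to 1077 CPM (median 799.6) and 558 to 1129 (median 730.4), with a median change of -0.08. The hemoglobin gene Hbb-bs, a sign of blood left after perfusion, was at medians of 64.5 and 26.0 CPM (-1.31 ± 0.38, adjusted p = 0.157). Lymphocyte, border macrophage and neutrophil and monocyte markers summed to medians of at most 84.9 CPM at either time.

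**Figure D4:**
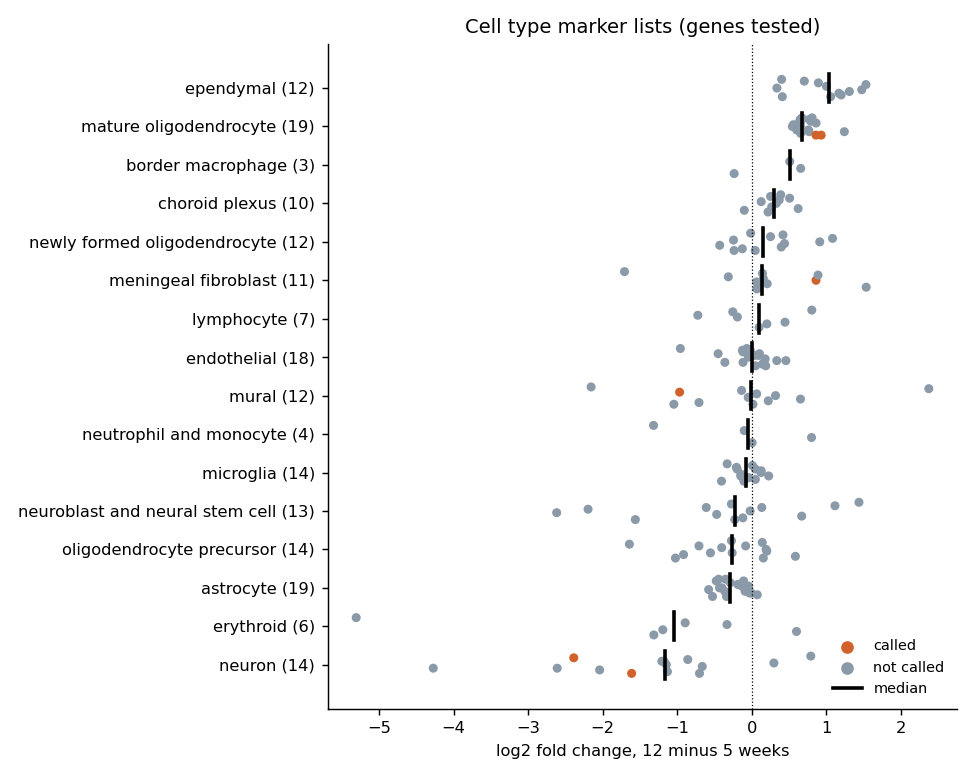
Log2 fold change at 12 against 5 weeks (horizontal axis) of each tested marker gene in the 16 cell type lists (vertical axis, number of genes in brackets), called genes in orange and the median of each list as a bar. All mature oligodendrocyte and ependymal markers lie above 0, and 12 of 14 neuron markers lie below it.

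**Figure D5:**
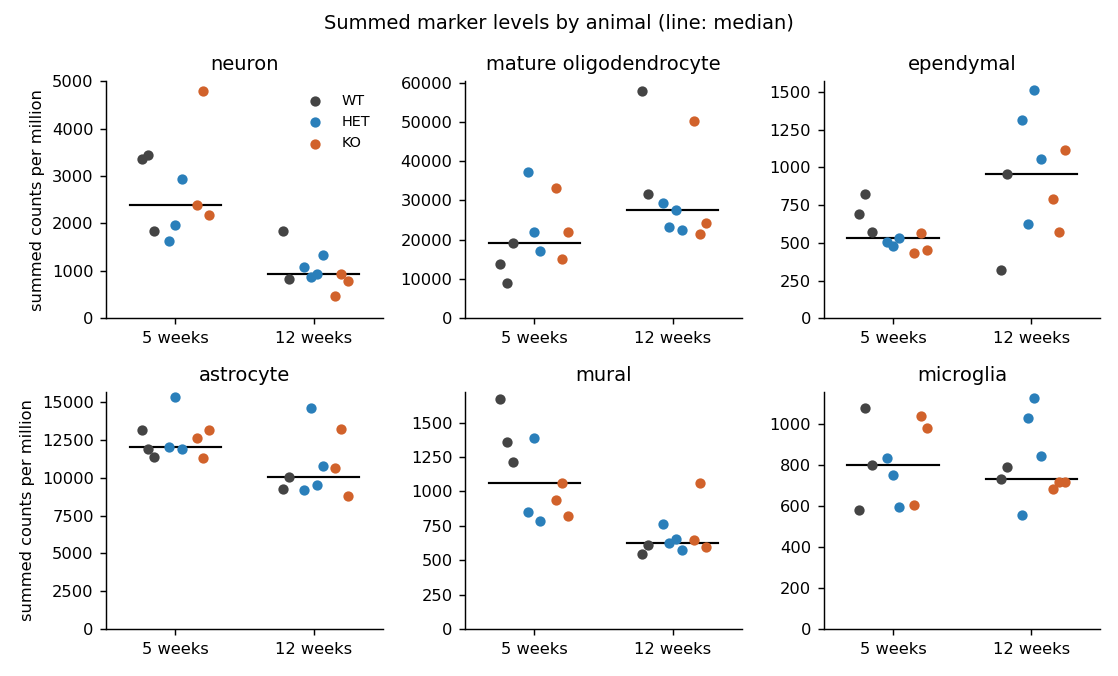
Summed CPM of 6 marker lists (vertical axes, from 0) in each of the 18 animals at 5 and 12 weeks, coloured by Trem2 genotype, with the median of each time as a line. Neuron and mural sums, made up mostly of Meg3 and Rgs5 in most animals, have 8 of 9 animals at 12 weeks below the 5-week range, and the microglia sums of the times overlap.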

How the data were processed

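The deposited table holds tag counts per gene as whole numbers, made by the authors without normalization, for 49912 genes and 74 libraries, with a symbol, biotype and Ensembl identifier per gene. Tools named in the submitters' processing notes are STAR, FastQC 0.11.5, MultiQC and R 3.4.3, with assembly GRCm38.p6. Which counter and gene annotation were used, and whether strand or molecular identifiers entered, is not given in the sources used here, so overlapping genes and close paralogs can share counts. Sorting and library kit are taken from the labels' protocols. Coordinates are from GENCODE M21, matched on the Ensembl identifier with its version (47180 genes) or, where the version differed, without it (2645 genes, among them Fth1, Mbp, Tuba1a and Elfn2). Promoters are from RefSeq.

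The 18 libraries held 1255465 to 3039772 counts, and a level of 1 CPM rests on a few counts. They were fitted with edgeR 4.0.16 in R 4.3.3 (filterByExpr with a minimum count of 10, TMM, robust quasi-likelihood, terms for genotype, sex and week). Standard errors are the size of the log2 change divided by the root of F. P-values are two-sided and Benjamini-Hochberg adjusted over all genes tested, with calls under 0.05. Changes within a genotype and their interaction used group means of the same 18 libraries, the diet interaction used all 37 nonmicroglia libraries, and the fraction interaction used 36 control libraries of both fractions. Library measures were compared by exact permutation of 9 against 9 animals. The code was tested on simulated counts.

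The same animal numbers join the 2 fractions. The correlation of their deviations from the group means was -0.025 to 0.044 over 18 animals (median 0.0068). The fraction interaction and its p-values came from a fit with no term for the animal, so they did not use this pairing. The fit with the animal as a block was an alternative. No library copied another: in 153 pairs chi-square per degree of freedom was at least 12.5.

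The comparison, the 40 gene lists and the tests were chosen with earlier results of these data known. Named genes are up to 12 rises and falls that passed, had a mean log2 CPM of at least 3 and did not overlap (predicted, sex-linked and mitochondrial genes left out), up to 4 called members of each list or else its member with the smallest p, Trem2, and up to 6 called genes of each interaction. This rule names 8 of the 28 called genes. The other 20, the members of 21 gene families, host genes and further list members were chosen after their values were seen. Alternatives were DESeq2 1.42.0 and its size factors, limma 3.58.1 on quality-weighted voom values, leaving low counts in, other covariates and subsets, and leaving out each library. Some genes of the lists and families are not reported here.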

Additional observations from a re-analysis of the deposited data

Results flagged for a closer look

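In 22 of 134 sets of 9 animals, 1 animal stood far from the other 8 in the level of a gene. Chance alone would flag about 1 in 20 sets of normally distributed values, and the rate for levels with many zeros, such as those of Syt6, Tyms and C3, was not tested. The sets share animals and neighbouring genes, and no cause was tested. The wild-type animal 1932 at 12 weeks was the high one for 6 genes: Mbp (6035 CPM), Tuba1a (1926), the serine synthesis gene Psat1 (592), Srrm3 (23.04), Syt4 (14.7) and the activity-induced factor Npas4 (6.98). The other flagged animals at 12 weeks were 944 for Adgrl1 (272 CPM) and Pcdhb9 (27.0), 7674 for Syt6 (8.07) and Rps24 (592), 8635 for F13a1 (23.2) and Plac8 (21.1), and 9463 for the complement gene C3 (31.0). At 5 weeks animal 1930 was flagged for S100b (2241 CPM) and C3 (15.8), animal 1104 for A230103L15Rik (125), Plac8 (47.2) and the immunoglobulin gene Igkc (117), animal 9470 for Elfn2 (78.1) and Tyms (4.07), animal 4352 for Emp1 (22.5) and animal 309 for Vegfa (386).

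In 5 cases the change from 5 to 12 weeks differed between groups by the test of the difference. Syt4 differed between the diets, control minus cuprizone, by -2.55 ± 0.40. Between the fractions, nonmicroglia minus microglia, the differences were -1.71 ± 0.30 for Id2, 1.02 ± 0.20 for Fth1, -3.66 ± 0.72 for Gm38043 and -1.90 ± 0.38 for Hivep2.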

How the results depend on the processing

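None of the 28 called genes changed sign in any of 29 alternative settings. With DESeq2 the counts were 202 for 12 against 5 weeks (58 higher and 144 lower, all 28 among them), 2 for the genotype interaction, 156, 80 and 63 within wild type, HET and KO, 4 for the diet interaction and 264 for the fraction interaction. With limma they were 94 (16 higher and 78 lower, 25 of the 28 among them), 4 within HET, 11 within KO, 0 for the diet interaction and 40 for the fraction interaction. Without a filter on low counts they were 81 (21 higher and 60 lower), 1 for the genotype interaction, 46, 4 and 15 within wild type, HET and KO, 3 for the diet interaction and 22 for the fraction interaction. The main comparison gave 1 call with the noncoding share as a covariate, 13 with the RNA integrity number as a covariate in 12 libraries (3 of the 28 among them) and 87 in the 12 libraries of females (17 higher and 70 lower, 27 of the 28 among them). DESeq2 size factors gave 20 calls (6 higher and 14 lower), and fitting all 37 nonmicroglia libraries gave 40 (18 higher and 22 lower, 19 of the 28 among them). The fraction interaction gave 1 call without the sex term and 13 with the animal as a replicate block. The cause of these moves was not tested. Leaving out 1 library at a time gave 11 to 65 calls in the main comparison, 0 to 63 for the genotype interaction, and 0 to 179, 0 to 7 and 0 to 20 within wild type, HET and KO. Without 1 of the wild-type animals of 12 weeks that group has 1 animal, which is assumed to vary like the others. Of the 28 genes 8 stayed called in all 18 of these fits (Apod, Fth1, Gm42583, Grin2b, Mbp, Meis2, Rasgef1a and Rgs5), and 8 in under 9 of them (Elfn2, Gad1, Gm42598, Gria1, Hivep2, Luc7l3, Pnisr and Tmsb4x). Genes at a few CPM or less at 12 weeks, such as Syt6 and Srrm3, rest on few counts per library at that time.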

Other observations

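Of the gene programs beyond those described above, the 22 tested cytosolic ribosomal protein genes had a median change of 0.31, with 18 above 0 and no call. The 16 tested proliferation genes had a median of 0.71, with 15 above 0 and no call, at summed levels of 98.8 to 301 CPM at 5 weeks and 152 to 353 at 12 weeks. Of 22 genes of cholesterol synthesis and uptake 17 had a positive change, with a median of 0.24 and no call, and 6 animals at 12 weeks were above the 5-week range of the summed level. Heat shock genes had a median of 0.23 and interferon response genes one of 0.24, and genes of the immediate early response, the circadian clock, glucocorticoid response, glycolysis, oxidative phosphorylation and complement had medians between -0.08 and 0.14, in every case with no call.

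Apod was the 1 called member of the 11 tested meningeal fibroblast markers (median change 0.14), Mbp that of the 11 thyroid hormone response genes (median -0.17), and Meg3 that of the 9 developmental and imprinted growth genes (median 0.35). No gene was called in the lists of neuroblasts (median -0.23), collagen and basement membrane (-0.14), antigen presentation (-0.03), reactive astrocytes (0.26), barrier transport (-0.05), Wnt signalling and angiogenesis (0.07), the integrated stress response (-0.06), mitochondrially encoded genes (0.18) and clustered protocadherins (-0.13). Among further receptor families looked up after the calls were seen, 8 of 11 tested GABA-A receptor subunits, 5 of 7 metabotropic glutamate receptors and 4 of 5 kainate receptor subunits had a negative change, with no call. Of 13 synaptotagmins 9 had a negative change and Syt6 was called.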
